A study of Homo sapiens with 12 samples.

Results

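The nuclear-encoded subunits of the respiratory chain and ATP synthase were followed in HCT116, a cell line from a human colorectal carcinoma, after treatment with dolastatin 15. They were taken as the protein-coding genes whose GENCODE 29 symbols begin with NDUFA, NDUFB, NDUFC, NDUFS or NDUFV (complex I), SDHA to SDHD (complex II), UQCR (complex III), COX4 to COX8 (complex IV) or ATP5 (complex V, the ATP synthase). This gave 91 genes of 58174 in the table, with 40 in complex I, 4 in complex II, 9 in complex III, 17 in complex IV and 21 in complex V. Dolastatin 15 is a peptide first found in a sea hare, and it blocks the assembly of microtubules. The study set out to compare it with its solvent at 2 concentrations and 2 times. RNA came from cells given 20 nM or 100 nM dolastatin 15, or solvent alone, for 16 h or 24 h. There were 12 poly(A)-selected libraries, 2 for each of 6 groups, and all 12 came from cells kept in DMEM with 5% serum and 0.25% DMSO, so the solvent groups carried the DMSO too. Duplicates are not said in the labels to come from separate cultures. The p-values rest on the spread between the 2 libraries of a group, pooled over all 6 groups, and it may be technical.

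The respiratory chain sits in the inner mitochondrial membrane. Complexes I and II pass electrons from NADH and succinate to ubiquinone, complex III passes them on to cytochrome c, and complex IV hands them to oxygen. Complexes I, III and IV pump protons as they do so, and complex V uses the proton gradient to make ATP. Complex II alone is made entirely of nuclear-encoded subunits and is also an enzyme of the citric acid cycle, while each of the others combines nuclear-encoded subunits with subunits encoded by mitochondrial DNA. Each complex joins a few catalytic core subunits with smaller accessory subunits that surround them.

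Levels are given in FPKM, fragments divided by transcript length and library size, so genes can be set side by side. Libraries 1 and 2 were 20 nM, 3 and 4 were 100 nM and 5 and 6 were solvent at 16 h. Libraries 7 and 8 were 20 nM, 9 and 10 were 100 nM and 11 and 12 were solvent at 24 h. The FPKM values summed to between 911720.3 and 1049886 per library, and the read depth is unknown. Transcripts of mitochondrial DNA took 17.9% to 25.8% of that sum, with 17.9% and 18.6% in solvent at 24 h, 23.8% and 25.8% at 20 nM and 18.8% and 20.7% at 100 nM, and the part of this share in the results below was tested only by rescaling. The epithelial markers KRT8, KRT18, KRT19 and EPCAM lay between 204 and 486 FPKM, while CDH1 was low at 2.91 to 3.92. Of 7 markers of immune cells, fibroblasts and endothelium, 5 stayed at or under 0.300 FPKM in every library (PTPRC, CD3E, COL3A1, PECAM1 and VWF), and the summed level of the 7 was 10.5 to 22.4 FPKM, mostly CD68. Among these markers CD68 rose at 100 nM and 16 h (0.48 on the log2 scale) and at 20 nM and 100 nM at 24 h (0.63 and 0.58), and KRT18 fell in all 4 comparisons (-0.23 at 100 nM and 24 h). KRT19 rose at 100 nM and 16 h (0.39) and at 20 nM and 100 nM at 24 h (0.31 and 0.50), EPCAM rose at both doses at 24 h (0.37 and 0.17), and KRT8 and CDH1 were called in none of the 4. After rescaling to a common sum KRT19 at 20 nM and EPCAM at 100 nM were no longer called at 24 h. The call of EPCAM at 100 nM also ended without library 9 or 11, those of CD68 without library 1, 2, 3, 4, 5 or 6 at 16 h, without library 8 or 11 at 20 nM and 24 h and without library 9 or 11 at 100 nM and 24 h, and those of KRT18 without library 1, 2, 5 or 6 at 20 nM and 16 h, library 4, 5 or 6 at 100 nM and 16 h and library 12 at 20 nM and 24 h. The part of these markers in the results below was not tested. Libraries 7 and 8 stood apart from each other more than any other pair. Of 83 subunits tested, 65 were higher in library 7, and the median absolute difference was 0.13 on the log2 scale, against 0.047 to 0.062 in the other 5 pairs.

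Most subunits were among the most abundant transcripts of these cells. A mean above 100 FPKM over the 12 libraries was reached by 56 of the 91, and 79 of the 83 that could be tested lay above the median of all tested genes, 12.8 FPKM. Complex IV had the highest median subunit at 343 FPKM, followed by complex V at 273, complex III at 179, complex II at 126 and complex I at 105. The highest were ATP5MD at 1354 FPKM and COX7A2 at 1034 FPKM. ATP5MD is the subunit of the ATP synthase also known as DAPIT, found where the enzyme forms dimers, and COX7A2 is the widely expressed form of subunit VIIa of cytochrome c oxidase. NDUFB9, an accessory subunit of the membrane arm, led complex I at 653 FPKM, UQCRH, the acidic hinge protein that docks cytochrome c, led complex III at 429 FPKM, and SDHB, the iron-sulfur subunit, led complex II at 173 FPKM. The lowest of complex II was SDHA at 67.7 FPKM, and the lowest tested member of complex IV was COX7B at 58.5 FPKM. Levels varied little among libraries, and in 73 of the 83 the highest library was at most 1.5 times the lowest.

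Symbols that begin like a subunit do not all name one. NDUFC2-KCTD14 (mean 0.598 FPKM) and ATP5MF-PTCD1 (15.6 FPKM) are readthrough transcripts, UQCRHL (2.97 FPKM) is a near copy of UQCRH, and ATP5S (1.89 FPKM) is a coupling factor homologue. ATP5IF1 encodes the inhibitor of the ATP synthase, COX7A2L a factor that joins complexes into larger assemblies, and NDUFA4, counted here in complex I by its symbol, is found with complex IV. ATP5F1E, the epsilon subunit, was low at 12.8 FPKM beside its pseudogene ATP5F1EP2 at 16.5 to 38.9 FPKM, and reads of such copies may be divided between them, so both values are uncertain. The 8 genes that did not reach 1 FPKM in at least 2 libraries were not tested. They were the tissue-restricted forms COX4I2, COX6A2, COX6B2, COX7A1, COX7B2 and COX8C, with ATP5MGL and NDUFA4L2. COX6A2, the heart and muscle form, was listed at 0 in all 12 libraries, and the nearest to the filter was COX6B2, known from testis, with a highest library of 0.710 FPKM.

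**Figure D1:**
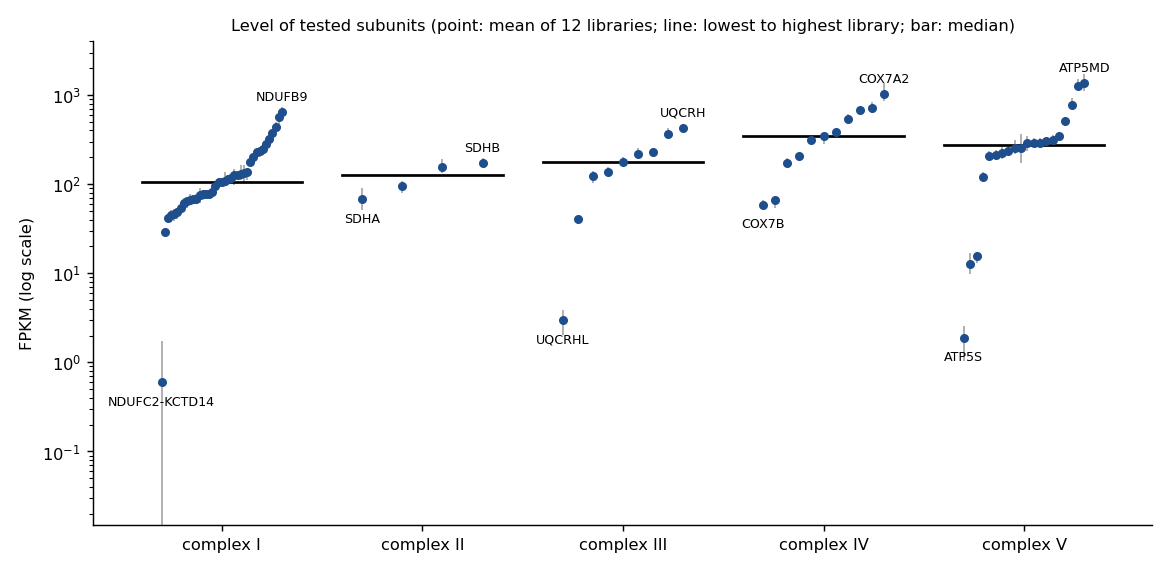
Level of the 83 tested subunits on a log axis in FPKM, grouped by complex I to V and sorted within each complex. Points are means of 12 libraries, vertical lines run from the lowest to the highest library (the line of NDUFC2-KCTD14 runs off the axis because some libraries are at 0), and horizontal bars are medians over subunits, which are highest in complex IV at 343 FPKM and lowest in complex I at 105 FPKM.

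At 24 h more subunits were higher under dolastatin 15 than lower, while at 16 h few changed. With 100 nM for 24 h, 33 of 83 rose and 4 fell, and with 20 nM for 24 h, 18 rose and 3 fell. With 20 nM for 16 h, 4 rose and 5 fell, and with 100 nM for 16 h, 2 rose and 4 fell. A call here means an adjusted p under 0.05 in limma over all 13458 tested genes, on the scale of log2(FPKM + 1). Called changes at 100 nM and 24 h ran from -0.68 to 0.38 on that log2 scale. In every called subunit of these comparisons both treated libraries lay beyond both solvent libraries. With 2 libraries a group a call can hardly be made otherwise, so this adds nothing to the calls. In RNA from a whole culture, fewer cells of a kind and less RNA per cell cannot be told apart.

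Against these counts stands the share called among all tested genes. For 100 nM at 24 h, 15.4% of all genes were called higher and 18.4% lower, against 39.8% and 4.82% of the subunits. For 20 nM at 24 h the shares of all genes were 14.7% higher and 14.1% lower, against 21.7% and 3.61% of the subunits. At 16 h, 6.78% of all genes were higher and 11% lower at 20 nM, and 9.16% were higher and 14.7% lower at 100 nM, against 4.82% and 6.02% of the subunits at 20 nM and 2.41% and 4.82% at 100 nM. The median log2 change of the subunits was 0.15 at 100 nM and 24 h, where that of all tested genes was -0.024, and 0.084 at 20 nM and 24 h, where that of all genes was 0.0018. At 16 h the medians were 0.0098 at 20 nM and 0.025 at 100 nM, against -0.024 and -0.028 for all genes. The 2 doses at each time were set against the same 2 solvent libraries, so their counts are not independent. Taken over the 4 comparisons, 49 of 83 subunits were called at least once, none in both directions, and 34 in none.

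The split of the 24 h counts depended on how libraries were scaled. When each library was rescaled to a common FPKM sum, the 20 nM comparison at 24 h had 4 subunits higher and 19 lower, and the 100 nM comparison had 4 higher and 6 lower. With the common sum taken over nuclear genes alone, the splits were 9 and 8 at 20 nM and 13 and 6 at 100 nM, and with median-of-ratios scaling they were 19 and 3, and 36 and 4. Rescaling moved all genes together: the median of all tested genes fell to -0.16 at 20 nM and -0.11 at 100 nM under the common sum. The median of the subunits stood 0.063 to 0.082 above it at 20 nM and 0.16 to 0.18 above it at 100 nM under the 4 scalings. A scaling shifts all genes of a library by nearly the same log2 amount. This distance could therefore hardly differ between scalings, and its likeness among them adds nothing. Without rescaling, the distance at 20 nM was 0.0090 with library 7 left out and 0.15 with library 8 left out, so it rested largely on library 7. At 16 h the common sum gave 4 higher and 5 lower at 20 nM and 0 higher and 5 lower at 100 nM, nuclear genes alone gave 5 and 5, and 1 and 4, and median-of-ratios scaling gave 6 and 5, and 5 and 3. ATP5MD, ATP5MF, COX7A2 and NDUFA5 were higher at 20 nM and 24 h, and ATP5MD, COX6A1, COX7B and NDUFC2 at 100 nM and 24 h, under all 4 scalings.

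**Figure D2:**
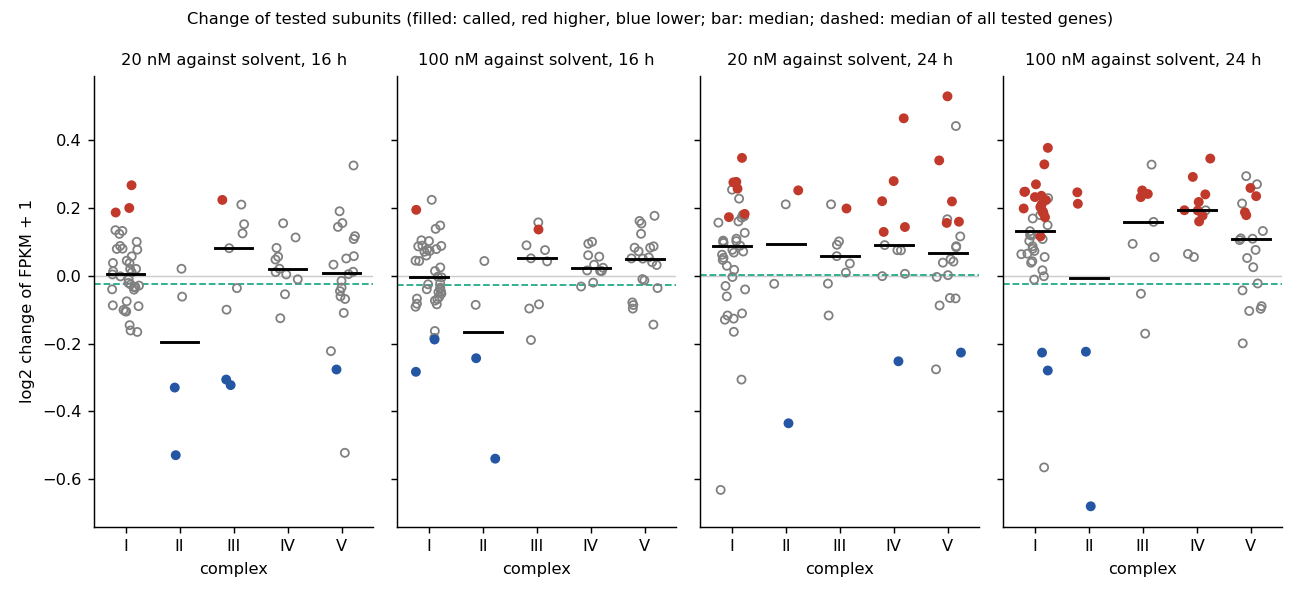
Log2 change of FPKM + 1 for each of the 83 tested subunits in the 4 comparisons of dolastatin 15 with solvent, by complex. Filled red and blue points are subunits called higher and lower (limma adjusted p under 0.05), open points were not called, black bars are medians by complex, and the dashed line is the median of all tested genes. At 24 h the medians of complexes I to V all lie above that line, that of complex II at 100 nM only slightly (-0.0057 against -0.024). SDHA in complex II is the lowest called point in all 4 panels.

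Many of these calls were not made when a single library was left out. A call is said below to end without a library when its adjusted p was 0.05 or more with that library left out. Leaving out a library also leaves less to estimate the spread from, so a call can end while its log2 change hardly moves. A library outside the comparison alters only the shared spread and not the log2 change. An ended call therefore does not by itself mean that the change rested on that library. Of the 33 subunits higher at 100 nM and 24 h, 5 were called without each single library in turn (NDUFC2, NDUFS5, SDHB, COX6A1 and ATP5MD), as was SDHA among the lower ones. At 20 nM and 24 h, 6 of 18 higher calls (NDUFA5, NDUFB3, SDHB, COX7A2, ATP5MD and ATP5MF) and 1 of 3 lower calls (SDHA) were made without each library. At 16 h SDHA alone was called at either dose without each single library. The split at 20 nM and 24 h was 11 higher and 6 lower without library 7, and 28 higher and 3 lower without library 8. After 24 h of 100 nM it was 9 and 2 without library 9, 12 and 3 without library 10, 14 and 2 without library 11 and 15 and 2 without library 12. For 20 nM at 24 h it was 7 and 1 without library 11 and 12 and 2 without library 12. At 20 nM and 16 h it was 2 and 1 without library 1, 1 and 1 without library 2, and 0 and 1 without library 5. After 16 h of 100 nM it was 0 and 1 without library 3 or 5 and 0 and 3 without library 6.

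Complex II divided. SDHA, the flavoprotein that oxidises succinate, fell under both doses at both times, while SDHB, which carries the iron-sulfur clusters, rose at 24 h. SDHC and SDHD anchor these subunits in the membrane and bind ubiquinone. SDHC fell in 3 of the 4 comparisons, and SDHD rose at 100 nM and 24 h. No other subunit of any complex fell in all 4 comparisons.

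SDHA (ENSG00000073578, chr5:218241-256700, plus strand of GRCh38) was at 89.6 and 84.6 FPKM in solvent at 16 h, 59.5 and 60.6 at 20 nM and 59.9 and 59.3 at 100 nM. At 24 h it was at 84.6 and 84.5 FPKM with solvent alone, 64.9 and 59.8 at 20 nM and 51.7 and 53.1 at 100 nM. All 8 treated libraries lay below all 4 solvent libraries, and library 9 was the lowest. At 16 h the fall was -0.53 on the log2 scale (SE 0.047, limma adjusted p = 0.000185) at 20 nM and -0.54 on the log2 scale (SE 0.047, limma adjusted p = 9.61e-05) at 100 nM. At 24 h it was -0.43 on the log2 scale (SE 0.047, limma adjusted p = 0.000389) at 20 nM and -0.68 on the log2 scale (SE 0.047, limma adjusted p = 2.36e-05) at 100 nM, where the level fell by 38.0%. These 4 calls were made under all 21 alternatives run for each. At 24 h SDHA was also lower at 100 nM than at 20 nM (log2 change -0.24, SE 0.047, limma adjusted p = 0.0268), a call that ended without library 1, 2, 9 or 10 (log2 change -0.26 to -0.23, adjusted p up to 0.159). The pseudogenes SDHAP1, at 9.28 to 14.5 FPKM, SDHAP2 and SDHAP3, at 0.280 to 2.10 FPKM, resemble SDHA, and reads may be divided among them.

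SDHB (ENSG00000117118, chr1:17018722-17054170, minus strand) was at 162 and 163 FPKM in solvent at 24 h, 195 and 193 at 20 nM and 188 and 189 at 100 nM. All 4 treated libraries at 24 h lay above every other library of the study. Its rise was 0.25 on the log2 scale (SE 0.037, limma adjusted p = 0.0016) at 20 nM and 0.21 on the log2 scale (SE 0.037, limma adjusted p = 0.00275) at 100 nM, and neither was called after rescaling to a common sum (log2 change 0.061 and 0.12, adjusted p 0.27 and 0.0649). At 16 h SDHB lay between 160.1 and 172 FPKM in all 6 libraries and was not called at either dose.

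SDHC (ENSG00000143252, chr1:161314257-161375340, plus strand) was at 192 and 169 FPKM in solvent at 16 h, 143 and 143 at 20 nM and 144 and 159.6 at 100 nM. Library 5 was the highest of all 12, and the groups did not overlap. The fall at 16 h was -0.33 on the log2 scale (SE 0.068, limma adjusted p = 0.0115) at 20 nM, a call that ended without library 1, 2 or 5 (log2 change -0.33 to -0.24, adjusted p up to 0.0743). It was -0.24 on the log2 scale (SE 0.068, limma adjusted p = 0.0306) at 100 nM, which ended without library 3 or 5 (log2 change -0.17 to -0.15, adjusted p up to 0.184). At 24 h SDHC was at 160.3 and 164 FPKM with solvent alone, 163 and 155 at 20 nM, where it was not called, and 135 and 143 at 100 nM. The last fell below solvent (log2 change -0.22, SE 0.068, limma adjusted p = 0.032), a call that ended without library 9, 10, 11 or 12 (log2 change -0.27 to -0.18, adjusted p up to 0.168).

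SDHD (ENSG00000204370, chr11:112086773-112120013, plus strand) was at 82.9 and 79.2 FPKM in solvent at 24 h, 102 and 86.8 at 20 nM and 97.3 and 95.2 at 100 nM. At 16 h it had been at 109 and 101 FPKM with solvent alone, 97.3 and 104 at 20 nM and 103 and 95.4 at 100 nM. The 2 solvent libraries at 24 h were the lowest of the 12, and the 4 treated libraries at 24 h did not reach the highest one of solvent at 16 h. The rise at 100 nM and 24 h was 0.25 on the log2 scale (SE 0.076, limma adjusted p = 0.0352), and it ended without library 9, 10, 11 or 12 (log2 change 0.21 to 0.28, adjusted p up to 0.157). Between the solvent groups SDHD fell from 16 h to 24 h (log2 change -0.37, SE 0.076, limma adjusted p = 0.0293), a call that ended without library 5, 6, 9, 10, 11 or 12 (log2 change -0.42 to -0.32, adjusted p up to 0.162).

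**Figure D3:**
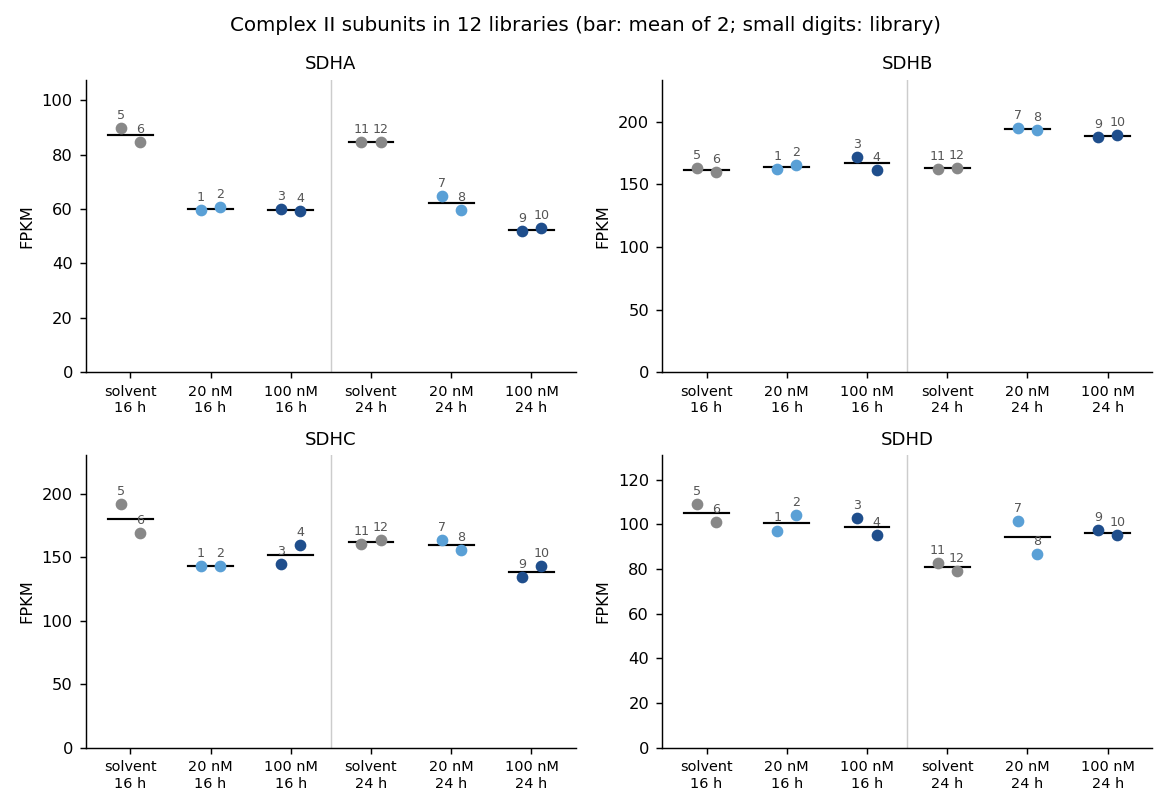
FPKM of SDHA, SDHB, SDHC and SDHD in the 12 libraries, with linear axes from 0. Points are libraries, small digits are library numbers and bars are means of 2. The 8 treated libraries of SDHA lie between 51.7 and 64.9 FPKM, below the 4 solvent libraries at 84.5 to 89.6 FPKM, and the treated libraries of SDHB at 24 h lie at 188 to 195 FPKM, above the others.

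The promoters of 3 of these 4 genes are shown because their transcripts moved in different directions. Each line gives the 250 bases before the RefSeq start on GRCh38.p14, read 5′ to 3′ along the gene, with SDHA at chr5:218070-218319 on the plus strand, SDHB at chr1:17054033-17054282 on the minus strand and SDHD at chr11:112086623-112086872 on the plus strand. Capitals mark matches, on either strand, to GCGCANGCG (the core of the NRF1 motif), CCGGAAG (the core bound by ETS factors such as GABP) or AAGATGGCG (the YY1 motif).
SDHA: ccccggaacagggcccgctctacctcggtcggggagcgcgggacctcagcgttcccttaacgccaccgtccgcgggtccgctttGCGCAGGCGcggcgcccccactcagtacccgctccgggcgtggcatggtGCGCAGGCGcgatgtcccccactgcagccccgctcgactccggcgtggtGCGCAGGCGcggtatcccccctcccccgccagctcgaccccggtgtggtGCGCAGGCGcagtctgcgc
SDHB: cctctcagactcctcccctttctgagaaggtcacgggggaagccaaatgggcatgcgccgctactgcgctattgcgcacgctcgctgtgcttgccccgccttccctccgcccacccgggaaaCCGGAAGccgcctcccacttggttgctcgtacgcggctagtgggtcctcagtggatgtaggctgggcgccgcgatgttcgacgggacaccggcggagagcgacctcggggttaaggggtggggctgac
SDHD: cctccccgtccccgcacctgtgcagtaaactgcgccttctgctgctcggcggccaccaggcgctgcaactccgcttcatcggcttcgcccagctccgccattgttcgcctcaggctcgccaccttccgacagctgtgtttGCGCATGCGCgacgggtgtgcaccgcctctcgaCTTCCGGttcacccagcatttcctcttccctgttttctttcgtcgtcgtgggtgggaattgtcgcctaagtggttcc
The SDHA window held GCGCAGGCG 4 times, at bases 85, 134, 183 and 232 counted from its first base. The SDHB window held CCGGAAG at base 123, with AAGATGGCG at base 261, past the start and so not shown. The SDHD window held 2 overlapping matches to the NRF1 core at bases 141 and 142 and the ETS core on the other strand at base 174.

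Of the 91 genes, 72 had a RefSeq promoter window of 300 bases (250 before and 50 after the start), and 41 of these, or 56.9%, held at least 1 of the 3 motifs. The same held for 35.2% of the 9866 windows of tested genes and 18.3% of all 27305 windows. The NRF1 core was in 31.9% of the subunit windows, 15.8% of those of tested genes and 8.05% of all. The ETS core was in 27.8%, 20.3% and 10.7%, and the YY1 motif in 11.1%, 4.25% and 1.85%. By complex, the NRF1 core was in 9 of 34 windows of complex I, 2 of 3 of complex II, 4 of 7 of complex III, 2 of 14 of complex IV and 6 of 14 of complex V. A match is a run of letters and no measure of binding.

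In complex I the calls were most numerous at 100 nM and 24 h. At 100 nM and 24 h, 16 of 39 tested members rose and 2 fell. None of the 7 nuclear-encoded core subunits, which carry the flavin and iron-sulfur clusters, rose in any of the 4 comparisons under any of the 4 scalings, while NDUFS1 fell at 100 nM and 16 h. Without rescaling at most 15.4% of all tested genes were called higher in a comparison. Few of 7 genes would be called at that share, so this is no trait of the core subunits. After rescaling to a common sum NDUFC2 alone of the complex was called higher at 100 nM and 24 h, and NDUFA5 alone at 20 nM and 24 h. The median of the complex was then 0.036 at 100 nM and -0.098 at 20 nM. Over all complexes that scaling had 19 subunits lower at 20 nM and 24 h and 6 lower at 100 nM and 24 h. At 20 nM and 24 h, 6 rose and none fell, at 20 nM and 16 h 3 rose and none fell, and at 100 nM and 16 h 1 rose and 2 fell. The median log2 change of the complex was 0.13 at 100 nM and 24 h, 0.089 at 20 nM and 24 h, and 0.0040 at 20 nM and -0.0047 at 100 nM at 16 h.

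NDUFC2 (ENSG00000151366, chr11:78068304-78080219, minus strand), an accessory subunit of the membrane arm, had the largest rise at 100 nM and 24 h among all subunits. It was at 100.4 and 99.4 FPKM with solvent alone, 113 and 98.7 at 20 nM and 137 and 124 at 100 nM. The 100 nM libraries were the highest of the 12, and those at 20 nM overlapped solvent. The rise was 0.38 on the log2 scale (SE 0.064, limma adjusted p = 0.00247) and was called under all 21 alternatives. It was also higher at 100 nM than at 20 nM (log2 change 0.30, SE 0.064, limma adjusted p = 0.0357), although this ended without library 1, 2, 3, 4, 5, 6, 8, 9, 10, 11 or 12 (log2 change 0.21 to 0.37, adjusted p up to 0.204).

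NDUFB7, an accessory subunit on the side of the membrane arm that faces the intermembrane space, was at 273 and 274 FPKM in solvent at 24 h, 362 and 303 at 20 nM and 349 and 339 at 100 nM. The rise at 100 nM was 0.33 on the log2 scale (SE 0.076, limma adjusted p = 0.0104), and the call ended without library 9 or 11 (log2 change 0.31 to 0.33, adjusted p up to 0.0624). At 20 nM it was 0.28 on the log2 scale (SE 0.076, limma adjusted p = 0.0254) and ended without library 7, 11 or 12 (log2 change 0.15 to 0.28, adjusted p up to 0.101). The solvent libraries at 16 h, at 327 and 313 FPKM, were inside the range of the treated ones at 24 h. NDUFB2, another accessory subunit of that arm, was at 201 and 200.5 FPKM in solvent at 24 h, 256 and 232 at 20 nM, 255 and 231 at 100 nM and 256 and 241 in solvent at 16 h. Its rise was 0.28 on the log2 scale (SE 0.061, limma adjusted p = 0.0102) at 20 nM, which ended without library 11 or 12 (log2 change 0.27 to 0.28, adjusted p up to 0.0509), and 0.27 on the log2 scale (SE 0.061, limma adjusted p = 0.00955) at 100 nM, which ended without library 9 (log2 change 0.20, adjusted p = 0.075).

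NDUFA5, an accessory subunit of the peripheral arm, was at 40.6 and 37.7 FPKM in solvent at 24 h, 51.8 and 48.3 at 20 nM and 45.0 and 45.1 at 100 nM. Both 20 nM libraries were the highest of the 12. The rise at 20 nM was 0.35 on the log2 scale (SE 0.051, limma adjusted p = 0.0016) and was called under all 21 alternatives, and that at 100 nM was 0.20 on the log2 scale (SE 0.051, limma adjusted p = 0.0167), which ended without library 9, 10 or 12 (log2 change 0.15 to 0.20, adjusted p up to 0.116). NDUFS5, an accessory subunit of the membrane arm, was the one gene called higher in 3 of the 4 comparisons. It was at 475 and 498 FPKM with solvent alone, 551 and 557 at 20 nM and 536 and 509.7 at 100 nM at 16 h, and at 558 and 579, 645 and 646 and 655 and 661 at 24 h. The treated libraries lay above solvent at both times. The changes were 0.19 at 20 nM and 16 h, 0.18 at 20 nM and 24 h and 0.21 at 100 nM and 24 h on the log2 scale (limma adjusted p = 0.0113, 0.00793 and 0.00326). The first ended without library 1, 2 or 5 (log2 change 0.15 to 0.20, adjusted p up to 0.0837) and the second without library 11 (log2 change 0.16, adjusted p = 0.0599), while the rise at 20 nM and 24 h was -0.0057 after rescaling to a common sum.

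NDUFS1, the large core subunit that holds several iron-sulfur clusters, was at 53.4 and 50.2 FPKM in solvent at 16 h and 40.6 and 44.2 at 100 nM (log2 change -0.28, SE 0.062, limma adjusted p = 0.0119), which ended without library 3 or 5 (log2 change -0.24 to -0.22, adjusted p up to 0.0804). At 24 h the 100 nM libraries lay above solvent, at 50.2 and 49.4 FPKM against 48.3 and 45.9, and were not called. NDUFV3, an accessory subunit beside the flavin site, was at 31.9 and 32.3 FPKM in solvent at 24 h and 26.9 and 27.7 at 100 nM (log2 change -0.23, SE 0.060, limma adjusted p = 0.0185), and this call ended without library 9, 10, 11 or 12 (log2 change -0.25 to -0.20, adjusted p up to 0.0987).

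The other called rises of complex I at 16 h were of accessory subunits. NDUFS6, which sits between the peripheral arm and its NADH-oxidising tip, was at 60.7 and 68.0 FPKM with solvent alone and 74.6 and 80.6 at 20 nM (log2 change 0.27, SE 0.062, limma adjusted p = 0.0196), a call that ended without library 2 or 5 (log2 change 0.19 to 0.21, adjusted p up to 0.129). NDUFA1 was at 36.2 and 39.0 FPKM with solvent alone and 41.9 and 44.8 at 20 nM (log2 change 0.20, SE 0.050, limma adjusted p = 0.0259), which ended without library 2 or 5 (log2 change 0.15, adjusted p up to 0.164). NDUFC1 was at 72.6 and 71.4 FPKM with solvent alone and 84.7 and 80.4 at 100 nM (log2 change 0.19, SE 0.054, limma adjusted p = 0.0298), which ended without library 3, 4, 5 or 6 (log2 change 0.16 to 0.23, adjusted p up to 0.151). These 3 rises were each of 0.19 to 0.27 on the log2 scale. The remaining rises at 100 nM and 24 h were of NDUFA4, NDUFA6, NDUFA8, NDUFAB1, NDUFB3, NDUFB6, NDUFB8, NDUFB9, NDUFC1, NDUFS4 and NDUFS6, at 0.12 to 0.25, and those at 20 nM and 24 h were of NDUFB3 and NDUFB5, at 0.26 and 0.17. Each of these 11 calls at 100 nM ended without at least 1 of libraries 9 to 12 (adjusted p up to 0.221). The call of NDUFB5 at 20 nM ended without library 12 (log2 change 0.13, adjusted p = 0.0909), and its change was -0.013 after rescaling to a common sum.

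In complex III different members were called at 24 h and at 16 h. At 100 nM and 24 h, 3 of 9 members rose (UQCR10, UQCRB and UQCRH, small accessory subunits, at 0.23 to 0.25 on the log2 scale) and none fell, and at 20 nM and 24 h UQCR10 alone rose, by 0.20. Among all tested genes 15.4% rose and 18.4% fell at 100 nM and 24 h, and 14.7% and 14.1% at 20 nM and 24 h. None of the 9 was called higher at 24 h after rescaling to a common sum. The median of the complex was then -0.097 at 20 nM and 0.063 at 100 nM. UQCRH was at 407 and 396 FPKM in solvent at 24 h and 472 and 476 at 100 nM (log2 change 0.24, SE 0.056, limma adjusted p = 0.0107), with no overlap, and the call ended without library 9, 10 or 12 (log2 change 0.22 to 0.25, adjusted p up to 0.0645). Reads of UQCRH and its near copy UQCRHL may be divided between them. UQCR10 was at 158 and 174 FPKM with solvent alone, 203 and 179 at 20 nM and 201 and 195 at 100 nM. Its rise at 20 nM ended without library 1, 2, 3, 4, 5, 6, 7, 9, 10 or 11 (log2 change 0.11 to 0.20, adjusted p up to 0.265). The rise at 100 nM ended without library 9, 10 or 11 (log2 change 0.18 to 0.27, adjusted p up to 0.113).

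At 16 h UQCRFS1, the Rieske iron-sulfur protein, was the one subunit of complex III that rose at both doses. Its pseudogene UQCRFS1P1, at 2.21 to 5.89 FPKM, may share reads with it. UQCRFS1 was at 35.6 and 37.6 FPKM with solvent alone, 43.0 and 42.8 at 20 nM and 41.1 and 39.7 at 100 nM. The rise was 0.22 on the log2 scale (SE 0.042, limma adjusted p = 0.00807) at 20 nM, which ended without library 1 or 5 (log2 change 0.19 to 0.22, adjusted p up to 0.0613). At 100 nM it was 0.14 on the log2 scale (SE 0.042, limma adjusted p = 0.0421), which ended without library 1, 2, 3, 4, 5, 6, 9, 10, 11 or 12 (log2 change 0.10 to 0.18, adjusted p up to 0.222). UQCRC1, a core subunit on the matrix side, was at 429 and 395 FPKM with solvent alone and 331 and 335 at 20 nM and fell (log2 change -0.31, SE 0.062, limma adjusted p = 0.0111), a call that ended without library 1, 2 or 5 (log2 change -0.31 to -0.25, adjusted p up to 0.0813). UQCR11, a small accessory subunit, was at 142 and 125 FPKM with solvent alone and 104 and 109 at 20 nM and fell as well (log2 change -0.32, SE 0.081, limma adjusted p = 0.0264), and this ended without library 1, 2 or 5 (log2 change -0.35 to -0.23, adjusted p up to 0.159). At 24 h UQCR11 had the opposite order, with 112 and 125 FPKM with solvent alone and 142 and 132 at 20 nM, and was not called (log2 change 0.21).

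Complex IV had the largest share of members called higher at 24 h, and none was called at 16 h at either dose. At 100 nM and 24 h, 8 of 11 tested members rose and none fell, and at 20 nM and 24 h, 5 rose and 1 fell. Among all tested genes 15.4% rose and 18.4% fell at 100 nM and 24 h, and 14.7% and 14.1% at 20 nM and 24 h. The median log2 change of complex IV at 100 nM and 24 h was 0.19, the highest of the 5 complexes. It stood 0.21 to 0.22 above the median of all genes under the 4 scalings, a distance that a scaling can hardly change. After rescaling to a common sum COX7A2 alone of the complex was called higher at 20 nM and 24 h, and COX6A1 and COX7B at 100 nM and 24 h. The median of the complex was then -0.097 at 20 nM and 0.097 at 100 nM. Over all complexes that scaling had 4 subunits higher and 19 lower at 20 nM and 24 h.

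COX7A2 (ENSG00000112695, chr6:75237675-75250323, minus strand) was at 897 and 992 FPKM in solvent at 24 h, 1229.5 and 1377 at 20 nM and 1166 and 1064 at 100 nM. At 16 h it lay between 852 and 987.7 FPKM in all 6 libraries. The 4 treated libraries at 24 h were the highest of the 12, and those at 20 nM stood above those at 100 nM. The rise at 20 nM was 0.46 on the log2 scale (SE 0.075, limma adjusted p = 0.0026), called under all 21 alternatives, and that at 100 nM was 0.24 on the log2 scale (SE 0.075, limma adjusted p = 0.0371), which ended without library 5, 6, 9 or 11 (log2 change 0.17 to 0.24, adjusted p up to 0.21). COX7A2L was at 59.4 and 55.1 FPKM in solvent at 24 h, 68.3 and 53.3 at 20 nM and 73.3 and 72.7 at 100 nM. Its rise at 100 nM was 0.35 on the log2 scale (SE 0.10, limma adjusted p = 0.0293) and ended without library 9, 10, 11 or 12 (log2 change 0.29 to 0.40, adjusted p up to 0.145). Library 7 lay above the solvent range and library 8 below it, and 20 nM was not called.

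COX7B, a small accessory subunit, was at 51.4 and 52.9 FPKM in solvent at 24 h, 67.2 and 59.9 at 20 nM and 65.8 and 62.3 at 100 nM. The rise was 0.28 on the log2 scale (SE 0.068, limma adjusted p = 0.0152) at 20 nM, which ended without library 7, 11 or 12 (log2 change 0.20 to 0.30, adjusted p up to 0.0836). At 100 nM it was 0.29 on the log2 scale (SE 0.068, limma adjusted p = 0.0107), which ended without library 9 or 11 (log2 change 0.25 to 0.27, adjusted p up to 0.0741). COX6A1, the widely expressed form of subunit VIa, was at 708 and 706 FPKM in solvent at 24 h, 793 and 754 at 20 nM and 799 and 846 at 100 nM. Its rise at 100 nM (log2 change 0.22, SE 0.040, limma adjusted p = 0.00335) was called under all 21 alternatives. At 20 nM it was 0.13 on the log2 scale and -0.059 after rescaling to a common sum, and the call ended without library 1, 2, 3, 4, 7, 11 or 12 (log2 change 0.093 to 0.13, adjusted p up to 0.143).

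COX8A, the widely expressed form of subunit VIII, was the one member of complex IV that fell. It was at 610.1 and 547 FPKM in solvent at 24 h, 497 and 473 at 20 nM and 605 and 596 at 100 nM. Both 20 nM libraries were the lowest of the 12, and the 100 nM libraries lay inside the solvent range. The fall at 20 nM was -0.25 on the log2 scale (SE 0.061, limma adjusted p = 0.0142), which ended without library 8 or 11 (log2 change -0.22 to -0.17, adjusted p up to 0.0979). Between the doses at 24 h COX8A was higher at 100 nM (log2 change 0.31, SE 0.061, limma adjusted p = 0.0283), which ended without library 8, 9 or 10 (log2 change 0.27 to 0.32, adjusted p up to 0.158). The other rises at 100 nM and 24 h were of COX4I1, COX5A, COX5B and COX6C, at 0.16 to 0.19, and at 20 nM COX4I1 and COX6C rose by 0.14 and 0.22. At 100 nM each of the 4 calls ended without library 9, without library 10 and without library 11. At 20 nM COX6C ended without library 8 or 11 (log2 change 0.14 to 0.21, adjusted p up to 0.113) and COX4I1 without library 7, 9, 10, 11 or 12 (log2 change 0.091 to 0.15, adjusted p up to 0.143), and COX4I1 was at -0.044 after rescaling to a common sum.

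Complex V had its largest called changes at 20 nM and 24 h, among the small subunits of the membrane part. At 20 nM and 24 h 5 of 20 tested members rose and 1 fell, and at 100 nM and 24 h 4 rose and none fell. At 16 h 1 fell at 20 nM and none was called at 100 nM. Among all tested genes 14.7% rose and 14.1% fell at 20 nM and 24 h, and 15.4% and 18.4% at 100 nM and 24 h. Of the 5 subunits of the catalytic part (F1), ATP5F1C rose at 20 nM and 24 h and ATP5F1B fell at 20 nM and 16 h. None of the 3 genes for the c-ring was called in any of the 4 comparisons. After rescaling to a common sum ATP5MD and ATP5MF were called higher at 20 nM and 24 h, and ATP5MD alone at 100 nM and 24 h. The median of the complex was then -0.12 at 20 nM and 0.011 at 100 nM.

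ATP5MD (ENSG00000173915, chr10:103389041-103396492, minus strand) was at 1124 and 1222 FPKM in solvent at 24 h, 1646 and 1738 at 20 nM and 1433 and 1372 at 100 nM. At 16 h it was at 1286 and 1259 FPKM with solvent alone, 1246 and 1221 at 20 nM and 1322 and 1375 at 100 nM. The groups at 24 h did not overlap, with 20 nM the highest and solvent the lowest. The rise at 20 nM was 0.53 on the log2 scale (SE 0.049, limma adjusted p = 0.000182), the largest of any subunit, and at 100 nM it was 0.26 on the log2 scale (SE 0.049, limma adjusted p = 0.00394). Both were called under all 21 alternatives. The difference between the doses (log2 change -0.27, SE 0.049, limma adjusted p = 0.0224) ended without library 8, 9 or 10 (log2 change -0.30 to -0.23, adjusted p up to 0.121).

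ATP5MF, the f subunit, was at 1155 and 1219 FPKM in solvent at 24 h, 1509 and 1497 at 20 nM and 1323 and 1231 at 100 nM. The 20 nM libraries were the highest of the 12. The rise at 20 nM was 0.34 on the log2 scale (SE 0.055, limma adjusted p = 0.00264), called under all 21 alternatives, and the gene was not called at 100 nM. It was lower at 100 nM than at 20 nM (log2 change -0.23, SE 0.055, limma adjusted p = 0.0487), and this ended without library 1, 2, 5, 6, 7, 8, 9, 10, 11 or 12 (log2 change -0.29 to -0.18, adjusted p up to 0.211). ATP5ME, the e subunit, which neighbours it in the membrane, went the other way, with 327 and 312 FPKM in solvent at 24 h and 294 and 253 at 20 nM (log2 change -0.23, SE 0.073, limma adjusted p = 0.0458). That call ended without library 1, 2, 3, 4, 5, 6, 8, 11 or 12 (log2 change -0.26 to -0.12, adjusted p up to 0.223).

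ATP5MG, the g subunit, differed between the times and between libraries 7 and 8. It was at 362 and 312 FPKM with solvent alone, 234 and 233 at 20 nM and 313 and 315 at 100 nM at 16 h, and at 173 and 189.9, 320.2 and 190.0 and 228 and 217 at 24 h. Libraries 7 and 8 differed by more than any 2 groups at 24 h, and no dose was called at either time. In solvent ATP5MG fell from 16 h to 24 h (log2 change -0.89, SE 0.19, limma adjusted p = 0.0323), and this ended without library 1, 2, 5, 6, 9, 10, 11 or 12 (log2 change -0.99 to -0.78, adjusted p up to 0.168).

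ATP5F1B, the catalytic beta subunit, was at 924 and 809 FPKM in solvent at 16 h and 718 and 711 at 20 nM and fell (log2 change -0.27, SE 0.078, limma adjusted p = 0.0413), with library 5 the highest of the 12. The call ended without library 1, 2, 3, 4, 5, 9, 10, 11 or 12 (log2 change -0.28 to -0.18, adjusted p up to 0.234). ATP5PF, a part of the peripheral stalk that holds the head still, was at 253 and 267 FPKM in solvent at 24 h, 293 and 313 at 20 nM and 293 and 296 at 100 nM, and rose by 0.22 and 0.18 on the log2 scale (limma adjusted p = 0.0094 and 0.0195). The first call ended without library 11 (log2 change 0.18, adjusted p = 0.0695), the second without library 9, 10 or 11 (log2 change 0.14 to 0.18, adjusted p up to 0.119). ATP5F1C, the rotating gamma subunit, and ATP5PO, the top of the peripheral stalk, each rose by 0.16 at 20 nM and 24 h and were at -0.032 and -0.028 after rescaling to a common sum. ATP5F1C ended without library 7, 8 or 11 (log2 change 0.11 to 0.17, adjusted p up to 0.19) and ATP5PO without library 1, 2, 5, 6, 7, 9, 10, 11 or 12 (log2 change 0.099 to 0.17, adjusted p up to 0.156). At 100 nM and 24 h the inhibitor ATP5IF1 rose by 0.19 and the readthrough ATP5MF-PTCD1 by 0.23. The first ended without library 9, 10, 11 or 12 (log2 change 0.17 to 0.20, adjusted p up to 0.148), the second without library 9 or 11 (log2 change 0.15 to 0.19, adjusted p up to 0.115).

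**Figure D4:**
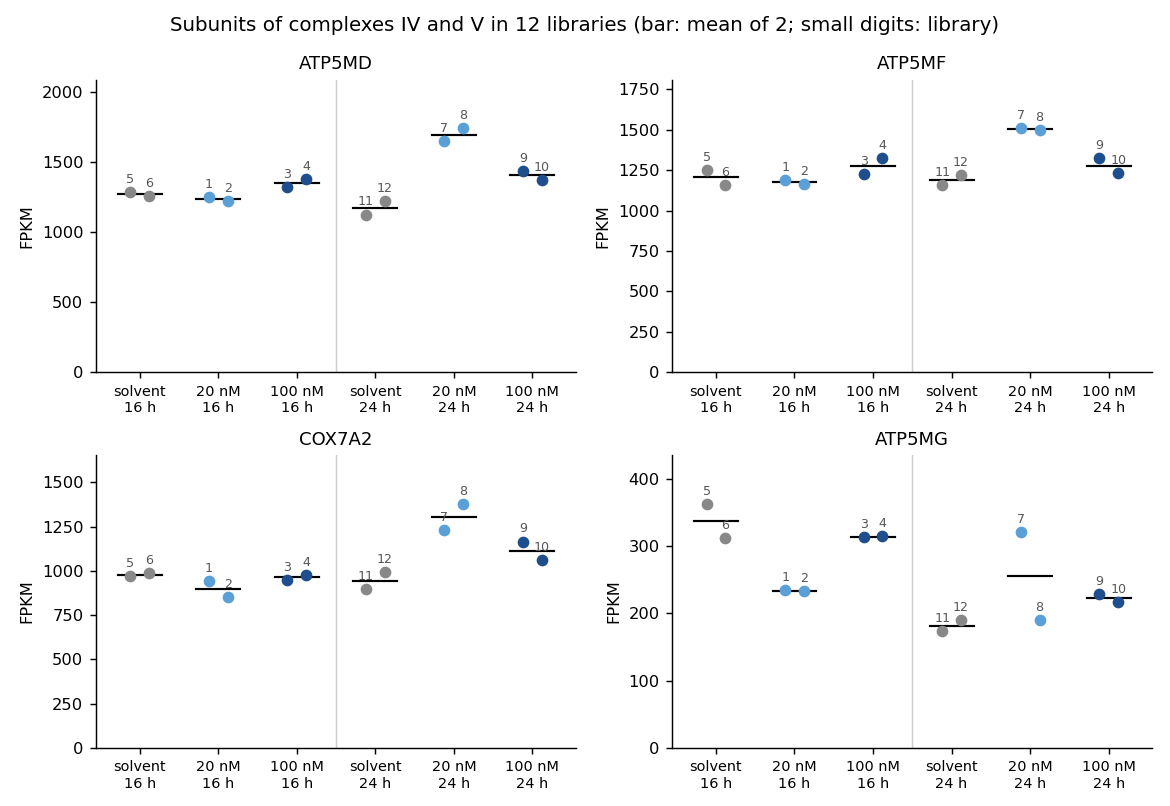
FPKM of ATP5MD, ATP5MF, COX7A2 and ATP5MG in the 12 libraries, with linear axes from 0. Points are libraries, small digits are library numbers and bars are means of 2. For ATP5MD, ATP5MF and COX7A2 the 20 nM libraries at 24 h are the highest, up to 1738, 1509 and 1377 FPKM, while ATP5MG is lower in solvent at 24 h than at 16 h and differs between libraries 7 and 8, at 320.2 and 190.03 FPKM.

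The FPKM sum of all 91 genes at 24 h stood differently to solvent under each scaling. Without rescaling the sum was 109% of solvent at 100 nM and 110.1% at 20 nM, and at 16 h it was 101% and 98.2%. As a share of the FPKM of nuclear genes the 91 made up 2.56% in solvent at 24 h, 2.68% at 20 nM and 2.66% at 100 nM, or 105% and 104% of solvent. As a share of the full FPKM sum they made up 2.09%, 2.02% and 2.14%, or 96.6% and 102% of solvent, and both 20 nM libraries, at 1.954% and 2.086%, lay below both solvent libraries, at 2.088% and 2.093%. By complex, without rescaling, the sums at 100 nM and 24 h were 113% of solvent in complex IV, 111% in complex I, 108% in complex III, 106% in complex V and 97.1% in complex II. Complex V at 20 nM and 24 h had the highest ratio at 115% of solvent, against 109.5% by its share of nuclear FPKM and 101% by its share of the full sum. Complexes II and V at 100 nM stood at 92.5% and 101% of solvent by nuclear share and at 90.8% and 99.6% by full share. At 16 h complex II was at 87.6% of solvent at 20 nM and 89.4% at 100 nM, and the other 4 complexes lay between 95.3% and 102%.

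The 2 doses differed in few subunits. At 24 h 2 were higher and 3 lower at 100 nM than at 20 nM, against 1.82% and 3.06% of all tested genes. These were COX8A and NDUFC2 (higher) and ATP5MD, SDHA and ATP5MF (lower), and none of the 5 was called without library 9 or without library 10. At 16 h none of the 83 was called, where 0.0446% of all genes were called higher and 0.275% lower. At an unadjusted limma p under 0.05, 4 were higher and 1 lower, and none was called under any of the other settings. The largest difference at 16 h in either direction was 0.43 on the log2 scale, where the standard error of a subunit was 0.037 to 0.31 with a median of 0.061. Under the common sum the split at 24 h was 10 higher and 1 lower, and under median-of-ratios scaling it was 4 and 2. It was 12 and 2 without library 7, 0 and 2 without library 8, 1 and 1 without library 1 or 2 and 1 and 2 without library 5, 6, 11 or 12.

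In solvent alone the subunits changed with time. From 16 h to 24 h 7 rose and 3 fell, against 3.14% and 2.47% of all genes called higher and lower, and the median change of the subunits was -0.032, with 0.020 for all genes. The falls were of ATP5MG, SDHD and NDUFB2, the rises of ATP5F1C, ATP5MC2, NDUFS5, NDUFA1, NDUFA6, NDUFB11 and UQCRFS1. NDUFB2 went from 256 and 241 to 201 and 200.5 FPKM (log2 change -0.30, SE 0.061, limma adjusted p = 0.0283), and ATP5F1C from 199.7 and 196 to 228 and 242 FPKM (log2 change 0.25, SE 0.045, limma adjusted p = 0.0219). ATP5MC2, 1 of the 3 genes for the c-ring, went from 279 and 271 to 319 and 331 FPKM (log2 change 0.24, SE 0.051, limma adjusted p = 0.0313), and NDUFS5 from 475 and 498 to 558 and 579 FPKM (log2 change 0.22, SE 0.038, limma adjusted p = 0.0182). No one of the 10 calls was made without each of libraries 5, 6, 11 and 12 in turn, and the split was 9 and 9 without library 7 or 8, 3 and 2 without library 1 or 2 and 4 and 1 without library 9 or 10. Under the common sum 10 rose and 3 fell, and under each of the other scalings 5 rose and 6 fell.

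The effect of each dose was also compared between the times. For 20 nM 8 subunits had a higher effect at 24 h than at 16 h and 2 a lower one, against 7.06% and 4.46% of all genes. For 100 nM 2 had a higher effect and none a lower one, against 5.87% and 4.29%. At 20 nM these were COX7A2, ATP5MD, UQCR11, ATP5MF, NDUFB2, NDUFA5, NDUFB5 and SDHB (higher) with UQCRFS1 and COX8A (lower), and at 100 nM NDUFC2 and NDUFS1. The split at 20 nM was 3 and 12 under the common sum, 5 and 3 under the common sum over nuclear genes and 8 and 2 under median-of-ratios scaling. The calls of COX7A2, ATP5MD and UQCRFS1 were made under all 20 alternatives. The split at 20 nM was 2 and 1 without library 1, 2 or 5, 19 and 1 without library 8, 4 and 1 without library 11 and 4 and 2 without library 12. At 100 nM it was 0 and 0 without library 5, 9, 11 or 12, 1 and 0 without library 1, 2, 6 or 10, and 10 and 0 without library 7 or 8.

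**Figure D5:**
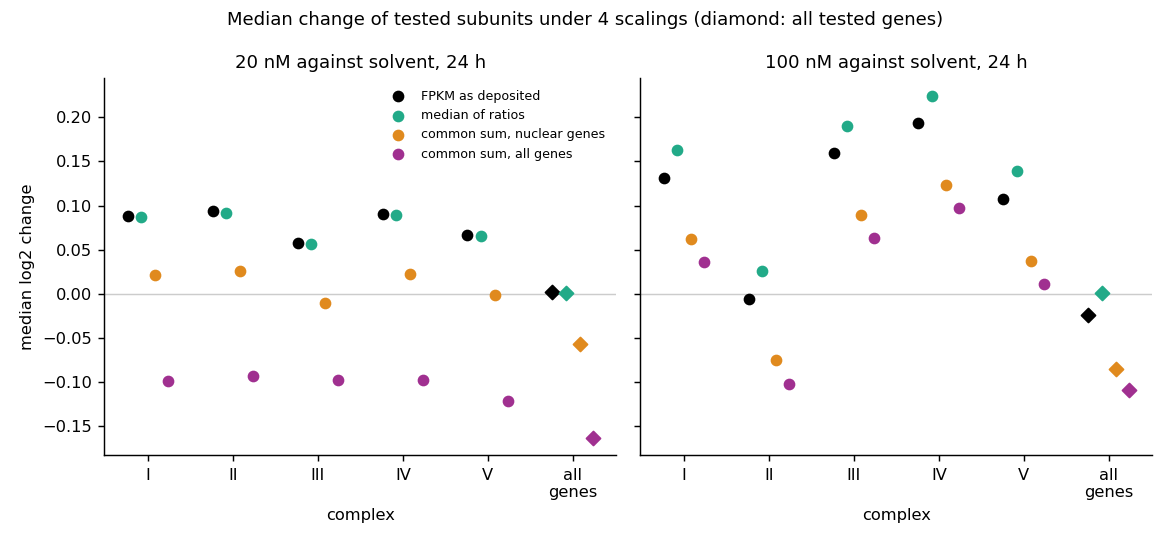
Median log2 change of the tested subunits of complexes I to V, and of all tested genes (diamonds), at 20 nM (left) and 100 nM (right) against solvent at 24 h under 4 scalings, marked by colour. The circles and the diamond of a scaling move together, so at 100 nM complexes I, III, IV and V stay 0.12 to 0.22 above the diamond of the same colour and complex II 0.0077 to 0.024 above it.

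The medians of the complexes changed sign with the scaling at 20 nM and 24 h. Under the common sum all 5 lay below 0, at -0.12 to -0.093, where without rescaling they were 0.058 to 0.093. At 100 nM and 24 h the medians of complexes I, III, IV and V were 0.011 to 0.097 under the common sum, and that of complex II was -0.10.

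Most subunit transcripts are short. Of the 83, 24 had a median annotated coding transcript under 600 bases and 41 one of 600 to under 1000 bases, and 18 were longer. After 24 h of 100 nM 37.5%, 48.8% and 22.2% of these 3 classes were called higher, against 18.6%, 21.3% and 14.9% of all tested protein-coding genes of the same classes. At 20 nM and 24 h the shares were 29.2%, 22.0% and 11.1%, against 18.8%, 19.8% and 14.4%. Shares of both subunits and all genes were lowest among long transcripts at both doses, and among those that fell at 100 nM and 24 h SDHA and NDUFV3 were in the class of 1000 bases or more and SDHC in that under 600. The part of transcript length in these results was not tested further.

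The subunits encoded by mitochondrial DNA rose in larger share. Of 13, 12 were called higher at 20 nM and 24 h and 9 at 100 nM and 24 h, with 3 and 5 at 16 h, and none was called lower. Of all tested genes 14.7%, 15.4%, 6.78% and 9.16% were called higher in the same comparisons. The median log2 change of the 13 was 0.57 at 20 nM and 24 h, 0.30 at 100 nM and 24 h, and 0.13 and 0.21 at 16 h. The nuclear-encoded subunits had 0.084, 0.15, 0.0098 and 0.025. Under the common sum 9 and 6 were still called higher at 24 h, with medians of 0.39 and 0.20. MT-ND6, a membrane subunit of complex I and the one subunit encoded on the other strand of mitochondrial DNA, was at 1865 and 2134 FPKM in solvent at 24 h, 3803 and 3910.5 at 20 nM and 2904 and 3261 at 100 nM (log2 change 0.95, SE 0.078, limma adjusted p = 0.000117 at 20 nM). Reads of the opposite strand may be included, since no source used here gives the strand setting of the counting. At 24 h 5 of the 13 were called lower at 100 nM than at 20 nM, against 3.06% of all tested genes.

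Assembly factors, which build the complexes without staying in them, were a list chosen apart from the subunits. Their counts stand beside the 14.7% of all genes called higher and 14.1% lower at 20 nM and 24 h, and the 15.4% and 18.4% at 100 nM. For complex I, 8 of 17 rose and 1 fell at 20 nM and 24 h, and 7 rose and 1 fell at 100 nM and 24 h, with 2 and 1, and 3 and 1, at 16 h. NDUFAF6 had the largest rise of these at 20 nM, from 26.9 and 23.9 FPKM in solvent at 24 h to 35.1 and 36.5 at 20 nM and 31.9 and 33.2 at 100 nM (log2 change 0.48, SE 0.068, limma adjusted p = 0.00135 at 20 nM). NDUFAF3 was the one that fell at 24 h, from 68.1 and 72.2 FPKM in solvent to 52.0 and 62.8 at 20 nM and 54.2 and 57.5 at 100 nM, and these calls ended without library 7, 11 or 12 at 20 nM and without library 9 or 12 at 100 nM. For complex II, 3 of 4 rose at each dose at 24 h (SDHAF1, SDHAF2 and SDHAF3) and none was called at 16 h. SDHAF1, which helps to insert the iron-sulfur clusters of SDHB, was at 16.8 and 16.0 FPKM in solvent at 24 h, 21.9 and 19.4 at 20 nM and 22.6 and 23.1 at 100 nM (log2 change 0.46, SE 0.061, limma adjusted p = 0.000731 at 100 nM). SDHAF2, which attaches the flavin to SDHA, was at 34.9 and 36.4 FPKM in solvent at 24 h, 46.6 and 42.4 at 20 nM and 48.7 and 43.5 at 100 nM (log2 change 0.36, SE 0.096, limma adjusted p = 0.019 at 100 nM), the opposite order to SDHA itself. Its call at 100 nM was not made without library 9, 11 or 12. Under the common sum the counts for complex I were 1 and 2 at 20 nM and 3 and 1 at 100 nM, and for complex II 0 and 0, and 2 and 0.

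For complex IV, 10 of 23 assembly factors rose and 4 fell at 100 nM and 24 h, and 5 rose and 3 fell at 20 nM and 24 h, with 3 and 3 at each dose at 16 h. COX14, a small membrane protein that binds newly made COX1, rose from 22.1 and 23.9 FPKM in solvent at 24 h to 36.2 and 30.1 at 20 nM and 31.6 and 35.6 at 100 nM (log2 change 0.53, SE 0.088, limma adjusted p = 0.00224 at 100 nM). LRPPRC, which stabilises mitochondrial messenger RNA, fell in all 4 comparisons, from 77.3 and 75.7 FPKM in solvent at 16 h to 59.8 and 60.9 at 20 nM and 64.2 and 62.3 at 100 nM, and from 68.7 and 67.5 at 24 h to 56.3 and 61.7 and 52.7 and 51.4 (log2 change -0.38, SE 0.047, limma adjusted p = 0.000515 at 100 nM). The call of LRPPRC at 20 nM and 24 h ended without library 11. For complex III, 1, 3, 1 and 2 of 6 factors rose in the 4 comparisons (20 nM and 100 nM at 16 h, then at 24 h) and UQCC1 fell at 20 nM and 24 h, and for complex V none of 3 was called. After 24 h of 100 nM the common sum gave 5 higher and 4 lower for complex IV.

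In a list of 6 genes for electron carriers and related proteins, cytochrome c (CYCS) and the enzyme that attaches its haem (HCCS) rose in all 4 comparisons. Of all tested genes 6.78% and 9.16% were called higher at 20 nM and 100 nM at 16 h, and 14.7% and 15.4% at 24 h. The other genes of the list are not described here, so these 2 do not stand for it. CYCS was at 265 and 264 FPKM in solvent at 24 h, 304 and 284 at 20 nM and 353 and 344 at 100 nM (log2 change 0.40, SE 0.046, limma adjusted p = 0.000367 at 100 nM), and its change at 20 nM and 24 h (0.15) reached -0.039 over the settings run. At 16 h it was at 276 and 289 FPKM with solvent alone, 321 and 338 at 20 nM and 325 and 312 at 100 nM. The calls of CYCS ended without library 2 or 5 at 20 nM and 16 h, without library 3, 4 or 5 at 100 nM and 16 h and without library 7, 9, 10, 11 or 12 at 20 nM and 24 h. The treated libraries lay above solvent at both times. HCCS was at 30.4 and 30.7 FPKM in solvent at 24 h, 34.8 and 33.4 at 20 nM and 38.5 and 39.4 at 100 nM (log2 change 0.34, SE 0.039, limma adjusted p = 0.000341 at 100 nM), and its call at 20 nM and 24 h ended without library 7, 11 or 12.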

How the data were processed

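RNA of 12 libraries of HCT116 cells, 2 for each of 6 groups, was poly(A)-selected and sequenced with a directional kit, per the labels' protocols. The authors deposited 1 table of FPKM values for 58174 genes, made with RSEM 1.2.28 on GRCh38 per the submitters' processing notes. No source used here gives the aligner, annotation release or strand setting. No read counts were used, so depth is unknown and no counting interval is given. RSEM shares reads between similar transcripts, which makes values of near-identical copies uncertain. Libraries were assigned to groups by their labels, and their numbers here are those of the table's columns.

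Gene symbols were taken from GENCODE 29 by Ensembl ID (57836 matched; SCO2 has 2 IDs, of which the first was used), and promoter windows from RefSeq on GRCh38.p14 (72 of 91 members). Genes at 1 FPKM or more in at least 2 libraries were kept (13458). Values were taken as log2(FPKM + 1), which understates changes of low genes, and limma 3.58.1 (R 4.3.3) was fitted with a mean for each of 6 groups over all libraries and a mean-variance trend, leaving 6 residual degrees of freedom and 2.98 prior ones. The 9 comparisons were each adjusted by Benjamini and Hochberg over all genes, and the fit was checked on simulated data. Any member could be named, and 1 subunit is counted in the totals but not reported here by itself. Full statistics went to the 6 highest and 6 lowest called changes of each drug comparison (3 and 3 of the others), to members called alike in at least 3 of the 4, and to the most and least abundant of each complex. Of each other list the most changed called gene per direction was named, and further genes were chosen after their values were seen. Members and lists were chosen with earlier results of these data known. The alternatives were pseudocounts of 0.1 and 0.5, no filter, a minimum of 5 FPKM, 3 rescalings, a constant prior, each time alone, and leaving out each library, where the lone library of a group is assumed to vary like the others.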

Additional observations from a re-analysis of the deposited data

Results flagged for a closer look

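In 12 cases the effect of a dose on a subunit differed between 24 h and 16 h, by a test of the difference itself in limma over all genes. Values are the difference of log2 changes against solvent, with the change at 16 h and at 24 h in parentheses. Among all tested genes 7.06% had a higher and 4.46% a lower effect at 24 h at 20 nM, and 5.87% and 4.29% at 100 nM. The subunits called were near these shares or below them, so their number is no trait of the subunits. At 20 nM the effect was higher at 24 h for 8 subunits. COX7A2 had the largest difference, 0.59 (from -0.13 to 0.46, limma adjusted p = 0.0106). ATP5MD followed with 0.57 (from -0.045 to 0.53, limma adjusted p = 0.0021) and UQCR11 with 0.53 (from -0.32 to 0.21, limma adjusted p = 0.0205). For ATP5MF the difference was 0.37 (from -0.035 to 0.34, limma adjusted p = 0.0188) and for NDUFB2 0.35 (from -0.075 to 0.28, limma adjusted p = 0.0335). For NDUFA5 it was 0.30 (from 0.044 to 0.35, limma adjusted p = 0.0296), for NDUFB5 0.26 (from -0.087 to 0.17, limma adjusted p = 0.023) and for SDHB 0.23 (from 0.021 to 0.25, limma adjusted p = 0.0248).

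A lower effect at 24 h was found for UQCRFS1, at -0.34 (from 0.22 to -0.12, limma adjusted p = 0.00922), and COX8A, at -0.33 (from 0.082 to -0.25, limma adjusted p = 0.0385). At 100 nM the effect was higher at 24 h for NDUFC2, at 0.45 (from -0.073 to 0.38, limma adjusted p = 0.0176), and NDUFS1, at 0.36 (from -0.28 to 0.080, limma adjusted p = 0.0341). The calls of COX7A2, ATP5MD and UQCRFS1 at 20 nM were made under all 20 alternatives, and each of the other 9 ended without at least 1 single library. Rescaling to a common sum ended 6 of the calls. At 20 nM it left a difference of 0.042 for SDHB, 0.072 for NDUFB5, 0.12 for NDUFA5, 0.16 for NDUFB2 and 0.18 for ATP5MF (limma adjusted p = 0.682, 0.471, 0.332, 0.249 and 0.105), and at 100 nM one of 0.30 for NDUFS1 (limma adjusted p = 0.0554). A common sum over nuclear genes ended those of NDUFA5, NDUFB5 and SDHB. Among the libraries left out, at 20 nM the call ended for UQCR11 without library 1, 2, 5 or 11, ATP5MF without library 1, 2, 5 or 11, NDUFB2 without library 1, 2, 5, 6, 7, 11 or 12, NDUFA5 without library 1, 2, 5, 6, 7 or 12. It also ended for NDUFB5 without library 1, 2, 5 or 12, SDHB without library 1, 2, 5, 6, 11 or 12, COX8A without library 1, 2, 5, 6, 8, 9, 10 or 11. At 100 nM it ended for NDUFC2 without library 5, 9, 11 or 12 and for NDUFS1 without library 1, 2, 3, 5, 6, 9, 10, 11 or 12.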

How the results depend on the processing

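No paired analysis was possible because the table's columns carry a library number and not the labels' own sample number, and so no library of one group matches one of another. The number of subunits called was within 1.5 times that reported, apart from the following and from single libraries left out. This number takes both directions together and does not show a turned split. Under the common sum the split at 20 nM and 24 h turned from 18 higher and 3 lower to 4 and 19. That for the change of the 20 nM effect turned from 8 and 2 to 3 and 12. Without a filter on low values, which tests more genes, it was 3 at 100 nM and 16 h, 21 at 100 nM and 24 h, 1 between the doses at 24 h, 4 between the solvent groups, and 5 and 1 for the change of the 20 nM and 100 nM effects with time. With a constant prior it was 2 at 100 nM and 16 h, 1 between the doses at 24 h, 2 between the solvent groups, and 6 and 1 for the changes with time. With the libraries of 24 h alone, which leaves 6 libraries in the fit, it was 13 at 20 nM, 16 at 100 nM and 0 between the doses. Rescaled to a common sum it was 10 at 100 nM and 24 h, 11 between the doses at 24 h and 1 for the change of the 100 nM effect, and over nuclear genes alone it was 19 at 100 nM and 24 h. The cause was not tested for the constant prior and the rescalings.

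Leaving out each library in turn gave 1 to 13 called subunits at 20 nM and 16 h, 1 to 7 at 100 nM and 16 h, 8 to 31 at 20 nM and 24 h, and 11 to 41 at 100 nM and 24 h. Between the doses the range was 0 to 0 at 16 h and 0 to 14 at 24 h, between the solvent groups 0 to 18, and for the changes with time 3 to 20 at 20 nM and 0 to 10 at 100 nM. Of the 100 called changes, 6 reversed, all at 20 nM and 24 h under the common sum: NDUFB5 to -0.013, NDUFS5 to -0.0057, COX4I1 to -0.044, COX6A1 to -0.059, ATP5F1C to -0.032 and ATP5PO to -0.028 on the log2 scale. All 100 stayed called with either other pseudocount and with a minimum of 5 FPKM, and 96 with median-of-ratios scaling. The called subunits lay well above these pseudocounts and this minimum, and the median-of-ratios factors were 0.977 to 1.03. These settings, which are among the alternatives counted above, could therefore hardly end a call and are weak checks. With 2 libraries a group and depth unknown, small differences cannot be resolved.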

Other observations

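Among 13 genes of coenzyme Q synthesis and transport, which make the lipid that carries electrons between the complexes, 4 rose at 20 nM and 24 h and 1 at 100 nM and 24 h, and none fell at 24 h. These are 30.8% and 7.69% higher, where 14.7% and 15.4% of all tested genes were called higher and 14.1% and 18.4% lower. COQ10B, which binds coenzyme Q, rose at both doses at 24 h, from 13.7 and 12.8 FPKM in solvent to 16.5 and 18.3 at 20 nM and 20.4 and 17.4 at 100 nM (log2 change 0.48, SE 0.080, limma adjusted p = 0.00212 at 100 nM). The call at 20 nM ended without library 12. After rescaling to a common sum 0 rose and 4 fell at 20 nM and 24 h, and 1 rose and 2 fell at 100 nM. Of 14 enzymes of the citric acid cycle, 1 rose and 2 fell at each dose at 24 h, or 7.14% and 14.3%. OGDH, a subunit of the oxoglutarate dehydrogenase, was at 39.5 and 40.2 FPKM in solvent at 24 h, 31.9 and 31.8 at 20 nM and 31.7 and 32.0 at 100 nM (log2 change -0.31, SE 0.039, limma adjusted p = 0.00051 at 100 nM). IDH2, the mitochondrial isocitrate dehydrogenase that reduces NADP, was at 17.2 and 18.8, 14.3 and 14.8 and 13.1 and 13.9 FPKM in the same groups (log2 change -0.38, SE 0.067, limma adjusted p = 0.00275 at 100 nM), and its call at 20 nM ended without library 7 or 12. After rescaling to a common sum 0 rose and 6 fell at 20 nM, and 0 rose and 5 fell at 100 nM.

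Of 14 tested regulators of mitochondrial genes, 3 rose and 3 fell at 100 nM and 24 h, or 21.4% each way, near the 15.4% higher and 18.4% lower of all tested genes. After 24 h of 20 nM 3 rose and none fell, against 14.7% and 14.1% of all genes, and 0 rose and 6 fell after rescaling to a common sum. TFB2M, a factor needed to start transcription of mitochondrial DNA, rose in all 4 comparisons, from 25.9 and 26.6 FPKM in solvent at 24 h to 34.0 and 32.4 at 20 nM and 37.4 and 34.2 at 100 nM (log2 change 0.43, SE 0.057, limma adjusted p = 0.000716 at 100 nM). Its call at 20 nM and 16 h ended without library 1, 2 or 6. TFAM and NRF1 were chosen after their values were seen. TFAM, which packs mitochondrial DNA, was at 54.2 and 55.0, 67.9 and 61.7 and 66.4 and 67.4 FPKM in the same groups (log2 change 0.29, SE 0.061, limma adjusted p = 0.00667 at 100 nM), and its call at 20 nM ended without library 7, 11 or 12. PPARGC1B, a coactivator of mitochondrial genes, was at 3.59 and 2.87, 2.39 and 2.90 and 2.24 and 2.20 FPKM (log2 change -0.39, SE 0.11, limma adjusted p = 0.0213 at 100 nM), a call that ended without library 9, 10 or 11. NRF1, a factor that binds promoters of many respiratory chain genes, was at 16.3 and 15.5, 16.5 and 15.2 and 14.5 and 15.9 FPKM and was not called in any of the 4 comparisons. The part of these genes in the values of the subunits was not tested.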
